A study of Mus musculus with 12 samples.

Results

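Aminoacyl-tRNA synthetases are the enzymes that join each amino acid to its tRNA. The 36 synthetase genes described here were picked by symbol from an RNA-seq table of 23234 mouse genes. They comprise 20 cytosolic genes and 16 mitochondrial genes, whose symbols end in 2. All 36 were in the table and averaged 1 FPKM or more across the libraries, the filter that left 10305 genes for testing. FPKM counts fragments per length of transcript, scaled for the size of the library, so levels of different genes can be compared per length of transcript.

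The cells were primary acute myeloid leukaemia cells from mice on a (FVB/n X C57/BL/6J) F1 background with the genotype NRASG12V/Mll-AF9, which pairs a mutant NRAS with an MLL fusion gene. Every group carried that genotype and was kept in RPMI medium with serum and GM-CSF. Cells received PD325901 at 20 µM, RAD001 at 26 µM, GDC0941 at 20 µM or the vehicle DMSO, each for 24 h, and 3 libraries were made per group. PD325901 inhibits MEK, the kinase above ERK, RAD001 (everolimus) inhibits mTOR complex 1, and GDC0941 (pictilisib) inhibits class I PI3 kinases. The 3 compounds have different targets, and each was given at 1 dose only. RNA levels do not measure inhibition of the target, so effects through it and through other proteins cannot be told apart. The labels do not say whether the libraries of a group came from separate cultures or mice, or whether the cells came from 1 leukaemia, so p-values measure only the spread between these libraries, which may be technical.

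The libraries summed to between 462335 and 587581 FPKM. Absolute depth is unknown, and the smallest steps between low values put relative depth between 0.846 and 1.21 of DMSO replicate 1. Libraries of 1 group correlated at Spearman rho 0.966 to 0.996, and libraries of different groups at 0.875 to 0.965. Of 12 myeloid and leukaemia markers, 10 averaged 1 FPKM or more, while Lyz2 was listed at 0 in every library and Spi1 is not analysed here. Some of these markers, named here after their values were seen, stood far apart between groups. Elane, the neutrophil elastase gene, averaged 29.6 ± 6.77 FPKM with PD325901, 1.16 ± 1.55 FPKM with RAD001, 2.66 ± 0.443 FPKM with GDC0941 and 34.6 ± 8.60 FPKM with DMSO (SD, n = 3 each). Mpo, for myeloperoxidase, averaged 19.4 ± 3.42 FPKM with PD325901, 2.25 ± 2.08 FPKM with RAD001, 3.94 ± 0.660 FPKM with GDC0941 and 23.1 ± 0.796 FPKM with DMSO. Itgam, for an integrin of mature myeloid cells, averaged 228 ± 1.98 FPKM with PD325901, 811 ± 21.6 FPKM with RAD001, 537 ± 59.5 FPKM with GDC0941 and 336 ± 6.02 FPKM with DMSO, and Cebpa, a myeloid transcription factor, 131 ± 18.6 FPKM with PD325901, 41.5 ± 8.09 FPKM with RAD001, 59.9 ± 6.75 FPKM with GDC0941 and 41.0 ± 8.70 FPKM with DMSO. Other markers of this list took other courses. Ctsg averaged 17.9 FPKM with PD325901, 7.21 FPKM with RAD001, 6.94 FPKM with GDC0941 and 71.4 FPKM with DMSO. Csf1r averaged 245 FPKM with PD325901, 278 FPKM with RAD001, 189 FPKM with GDC0941 and 152 FPKM with DMSO. Csf2ra averaged 204, 275, 213 and 151 FPKM in the same order. Markers of T and NK, B, erythroid and stromal cells summed to at most 8.41 FPKM per list in any library. The 4 megakaryocyte markers summed to 11.0 to 35.6 FPKM with PD325901, 215 to 278 FPKM with RAD001, 4.06 to 4.99 FPKM with GDC0941 and 77.1 to 133 FPKM with DMSO. Nearly all of this was Pf4, while Itga2b, Gp9 and Gp1ba each had a mean of at most 0.326 FPKM; the part of the myeloid and megakaryocyte markers in the results below was not tested. In bulk RNA, fewer cells of a type and less RNA per cell cannot be told apart.

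Each synthetase activates its amino acid with ATP and then transfers it to the tRNA, and the enzymes fall into class I and class II by the fold of the catalytic core. In mammals several cytosolic enzymes (those encoded by Dars, Eprs, Iars, Kars, Lars, Mars, Qars and Rars) sit together in the multi-synthetase complex, held by the scaffold proteins of Aimp1, Aimp2 and Eef1e1. Eprs encodes a single protein that charges both glutamate and proline, Farsa and Farsb encode the alpha and beta subunits of the phenylalanine enzyme, and Gars and Kars each supply both the cytosol and the mitochondria. Enzymes encoded by the other nuclear genes with symbols ending in 2 charge tRNAs inside the mitochondria. Many cytosolic synthetase genes are targets of ATF4, a transcription factor whose translation rises when the kinase GCN2 senses uncharged tRNA and which mTOR complex 1 also raises. The 13 cytosolic genes taken here as commonly listed ATF4 targets were Aars, Cars, Eprs, Gars, Iars, Lars, Mars, Nars, Sars, Tars, Vars, Wars and Yars. The other 7 were Dars, Farsa, Farsb, Hars, Kars, Qars and Rars, and this grouping was made after values of the genes were known.

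ATF4 binds with C/EBP partners to a composite element, and the promoters are shown because 5 of the genes lowered by all 3 inhibitors hold its letters close to the gene start. The RefSeq promoter table (GRCm38.p6, 250 bases before to 50 bases after each gene's start) held 13 of the 20 cytosolic genes and 14 of the 16 mitochondrial genes. The letters TGATGNAA, searched on both strands, were found in 5 of the 13 cytosolic promoters (Aars, Gars, Iars, Tars and Yars) and in 0 of the 14 mitochondrial promoters, against 3.969% of all 32851 promoters in the table. The letters CACGTG, the palindromic E-box bound by MYC and USF factors among others, were found in 4 cytosolic promoters (Aars, Farsb, Iars and Tars) and in 1 mitochondrial promoter (Ears2), against 7.15% of all promoters. Eprs, Mars and Sars were also lowered by all 3 inhibitors and had a promoter in the table, but without TGATGNAA. Cars, Lars, Nars, Rars, Vars and Wars, likewise lowered by all 3, had no promoter in the table. No match of either set of letters overlapped another. A match is a run of letters and was not tested for binding in these cells. The whole 300-base promoter of Aars and an 88-base stretch of the other 4 promoters are given 5′ to 3′ on the strand of the gene, with TGATGNAA (printed as its reverse complement where it lies on the opposite strand) and CACGTG in capitals. Aars was taken from chr8:111033592-111033891 (plus strand), Gars from chr6:55037931-55038018 (plus strand), Iars from chr13:49682092-49682179 (plus strand), Tars from chr15:11399626-11399713 (minus strand) and Yars from chr4:129189865-129189952 (plus strand).
Aars: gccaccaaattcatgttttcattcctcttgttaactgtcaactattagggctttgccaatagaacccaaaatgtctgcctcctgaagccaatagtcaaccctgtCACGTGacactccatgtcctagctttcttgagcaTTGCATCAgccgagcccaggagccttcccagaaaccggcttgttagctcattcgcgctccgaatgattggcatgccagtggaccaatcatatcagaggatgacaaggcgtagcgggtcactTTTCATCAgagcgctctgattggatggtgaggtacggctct
Gars: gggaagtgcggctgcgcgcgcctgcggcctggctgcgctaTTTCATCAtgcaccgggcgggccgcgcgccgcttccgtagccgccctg
Iars: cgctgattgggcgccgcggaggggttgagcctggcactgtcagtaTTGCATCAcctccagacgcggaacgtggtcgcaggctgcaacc
Tars: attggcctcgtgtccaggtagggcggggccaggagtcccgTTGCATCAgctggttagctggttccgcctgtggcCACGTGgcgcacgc
Yars: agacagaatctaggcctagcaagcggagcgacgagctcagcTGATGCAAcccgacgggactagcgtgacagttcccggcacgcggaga

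With 0 for the first of the 50 bases after the start, the Aars promoter had TGATGCAA at -112 and TGATGAAA at 9, both on the opposite strand, and CACGTG at -146. The Gars promoter had TGATGAAA at -30, the Iars promoter TGATGCAA at 7 and the Tars promoter TGATGCAA at -15, each on the opposite strand. Yars had TGATGCAA at 3 on the strand of the gene. The E-box letters stood at -69 in Iars, 19 in Tars, -39 in Farsb and 21 in Ears2. Thus 3 cytosolic promoters (Aars, Iars and Tars) held both sets of letters.

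Cytosolic synthetase genes were expressed well above most mitochondrial ones. Over the 12 libraries the cytosolic means ran from 13.0 FPKM for Vars to 73.9 FPKM for Nars, which charges asparagine. Gars, the glycine enzyme, followed at 60.0 FPKM. Of the 16 mitochondrial genes, 15 had means between 1.36 FPKM (Nars2) and 15.0 FPKM (Iars2). Lars2, which charges leucine in mitochondria, was the exception at 343 FPKM. Whether reads of another origin are counted in that level cannot be settled from FPKM values. The lowest means were those of Nars2, Vars2 (1.39 FPKM) and Wars2 (1.58 FPKM), for asparagine, valine and tryptophan. Within groups the median coefficient of variation was 8.04% over the cytosolic genes and 10.6% over the mitochondrial genes.

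**Figure D1:**
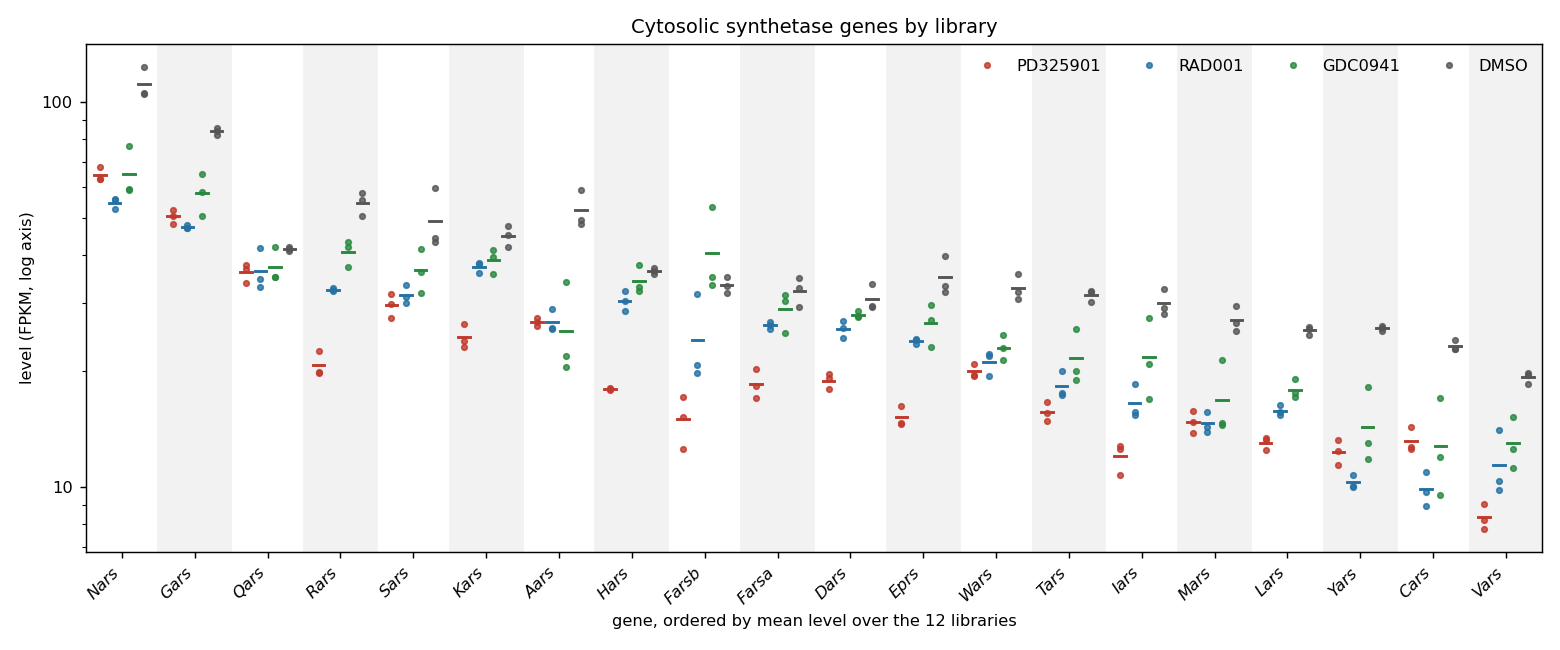
Levels of the 20 cytosolic synthetase genes (FPKM, log axis) in each library, with genes ordered by their mean over the 12 libraries. Points are libraries and short lines are group means, with PD325901, RAD001, GDC0941 and DMSO in that order from left to right within each gene; in most genes the DMSO points stand highest, and Nars and Gars head the order.

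**Figure D2:**
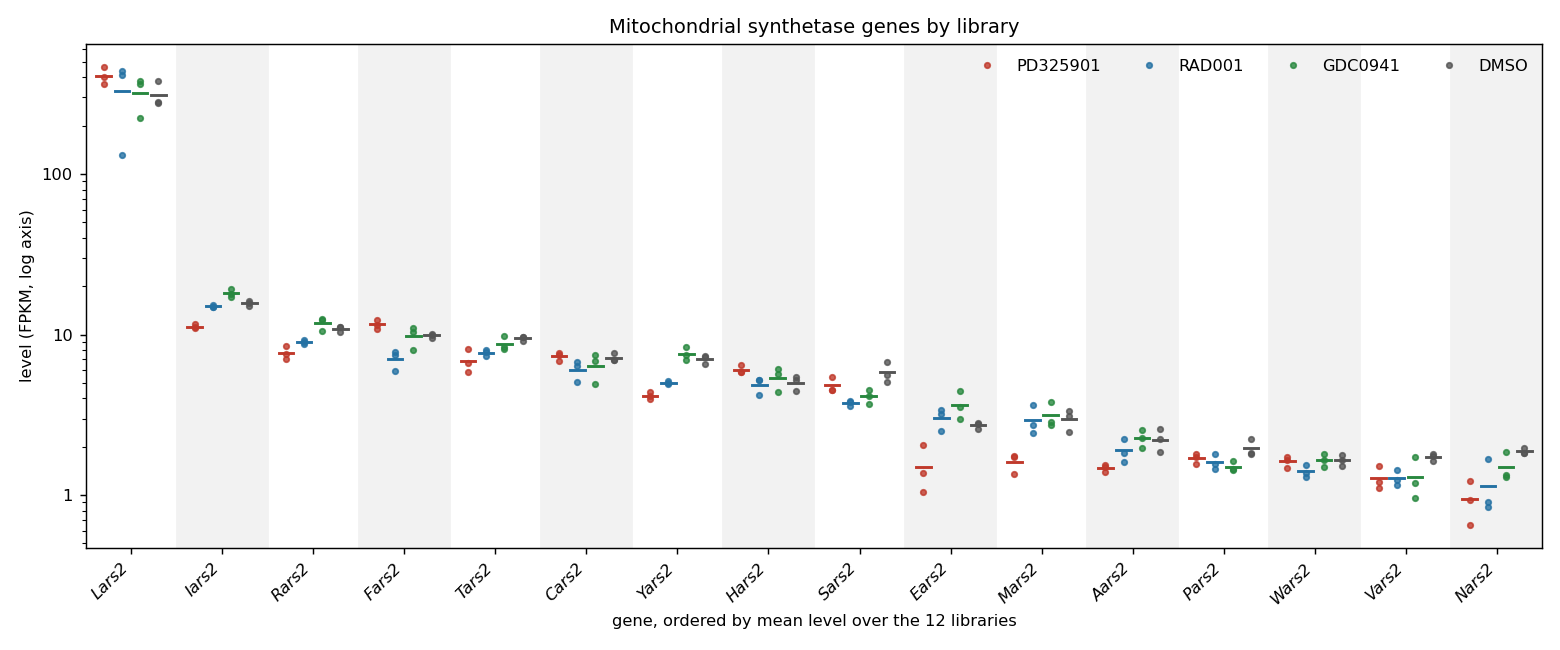
Levels of the 16 mitochondrial synthetase genes (FPKM, log axis) in each library, drawn as for the cytosolic genes. Lars2 stands apart at the top, with a wide spread between libraries.

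Lars2 had 404, 362 and 465 FPKM in the PD325901 libraries, 437, 132 and 414 FPKM in the RAD001 libraries, 377, 364 and 223 FPKM in the GDC0941 libraries and 379, 276 and 282 FPKM in the DMSO libraries. All groups overlapped, RAD001 replicate 2 lay far below the other RAD001 libraries, and no comparison of Lars2 passed the test. Because Lars2 alone outweighs the other 15 mitochondrial genes, their summed level is given without it.

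Summed over the 20 cytosolic genes, PD325901 libraries held 448 ± 9.02 FPKM, RAD001 libraries 515 ± 22.4 FPKM, GDC0941 libraries 602 ± 79.1 FPKM and DMSO libraries 822 ± 30.7 FPKM (SD, n = 3 each). These sums were 54.5%, 62.7% and 73.3% of the DMSO sum with PD325901, RAD001 and GDC0941. Taken as a share of the total FPKM of each library, they were 55.1%, 55.0% and 64.7% of the DMSO share in the same order. The step from PD325901 to RAD001 was thus not seen in the shares. No inhibitor library reached the lowest DMSO sum. The 15 mitochondrial genes other than Lars2 summed to 69.9 ± 1.71 FPKM with PD325901, 71.8 ± 1.19 FPKM with RAD001, 87.0 ± 5.04 FPKM with GDC0941 and 86.2 ± 3.46 FPKM with DMSO. The mitochondrial sums thus lay below DMSO with PD325901 and RAD001, whereas those of GDC0941 overlapped DMSO. GDC0941 replicate 1 was the highest of its group in 19 of the 20 cytosolic genes and in 7 of the 16 mitochondrial genes. Replicate 1 was also the highest in 14 cytosolic genes with RAD001, 11 with DMSO and 6 with PD325901. For the mitochondrial genes these counts were 6, 2 and 5. The same count was not made over all genes.

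**Figure D3:**
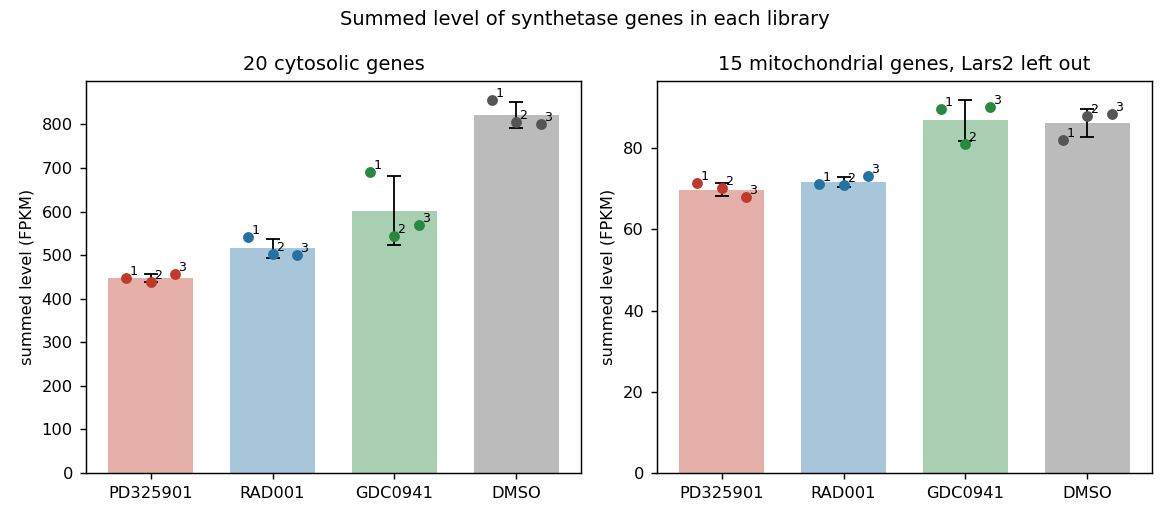
Summed level (FPKM) of the 20 cytosolic genes (left) and of 15 mitochondrial genes without Lars2 (right). Bars are group means, error bars SD (n = 3), and points are libraries numbered by replicate; every inhibitor library lies below the DMSO libraries on the left, and GDC0941 overlaps DMSO on the right.

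Comparing PD325901 with DMSO asks which synthetase genes change with this dose of the MEK inhibitor. The cytosolic genes were lower nearly throughout: 19 of 20 fell and 0 rose, where 28.2% of all 10305 genes tested fell and 18.4% rose at an adjusted p under 0.05. Qars, for glutamine, was the gene that did not pass. The median log2 difference, on the scale log2(FPKM + 1) used for every difference here, was -0.88 over the 20 cytosolic genes, against -0.06 over all genes. In the mitochondrial set 8 of 16 genes fell and 0 rose, with a median of -0.32, while under quantile normalization 7 fell and 1 rose (Hars2, 0.37, adjusted p = 0.0494). Calls rest on limma, with adjusted p by the Benjamini-Hochberg method over all genes tested. In parentheses after the levels of a gene stand its log2 difference ± SE of the fit and its adjusted p. The genes with the largest changes in each comparison were picked among those called without overlap between the groups. Their lack of overlap therefore follows from the choice and adds no support. Adding 1 to each value understates the change of genes with low levels. Under quantile normalization the split over all genes moved to 2494 lower and 2633 higher, against 2909 lower and 1893 higher as deposited, and the cytosolic count stayed at 19 lower.

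Rars, which charges arginine and belongs to the multi-synthetase complex, showed the largest change. It had 19.9, 19.8 and 22.5 FPKM in the PD325901 libraries, against 50.6, 55.8 and 57.9 FPKM in the DMSO libraries (-1.36 ± 0.08, adjusted p = 1.29e-06). Iars, for isoleucine, had 10.7, 12.5 and 12.8 FPKM in the PD325901 libraries, against 32.6, 28.1 and 29.2 FPKM in the DMSO libraries (-1.25 ± 0.15, adjusted p = 7.06e-05). In both genes the highest PD325901 library was below the lowest DMSO library.

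Eprs, the joint glutamate and proline enzyme, had 14.7, 14.6 and 16.2 FPKM in the PD325901 libraries, against 39.8, 32.0 and 33.2 FPKM in the DMSO libraries (-1.15 ± 0.10, adjusted p = 1.23e-05). Vars, for valine, had 9.02, 8.23 and 7.78 FPKM in the PD325901 libraries, against 19.5, 19.8 and 18.5 FPKM in the DMSO libraries (-1.12 ± 0.13, adjusted p = 7.16e-05). Farsb, the beta subunit of the phenylalanine enzyme, had 17.2, 12.6 and 15.2 FPKM in the PD325901 libraries, against 35.1, 31.9 and 33.3 FPKM in the DMSO libraries (-1.12 ± 0.20, adjusted p = 0.000999). None of these 3 genes overlapped between the groups. Farsa, the partner subunit, also fell (-0.77 ± 0.10, adjusted p = 0.000127).

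The remaining cytosolic genes that fell with PD325901 were Aars, Cars, Dars, Gars, Hars, Kars, Lars, Mars, Nars, Sars, Tars, Wars and Yars. Their log2 differences lay between -1.01 (Yars, tyrosine) and -0.68 (Dars, aspartate). Nars, the most abundant cytosolic gene, had 63.2, 63.3 and 67.7 FPKM in the PD325901 libraries, against 123, 105 and 105 FPKM in the DMSO libraries (-0.77 ± 0.10, adjusted p = 0.000181). Gars had 52.5, 48.3 and 50.6 FPKM in the PD325901 libraries, against 82.1, 85.8 and 84.2 FPKM in the DMSO libraries (-0.72 ± 0.09, adjusted p = 7.00e-05). Qars had 33.8, 36.8 and 37.8 FPKM in the PD325901 libraries, against 41.1, 41.5 and 42.0 FPKM in the DMSO libraries. The Qars groups did not overlap, but the log2 difference was small at -0.20 ± 0.10, adjusted p = 0.127, with a 95% interval of -0.43 to 0.03.

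Among mitochondrial genes the largest falls with PD325901 were in Yars2, Mars2 and Ears2. Yars2, for tyrosine, had 4.14, 4.37 and 3.99 FPKM in the PD325901 libraries, against 7.27, 6.56 and 7.31 FPKM in the DMSO libraries (-0.64 ± 0.08, adjusted p = 0.000125). Mars2, for methionine, had 1.35, 1.75 and 1.73 FPKM in the PD325901 libraries, against 2.47, 3.11 and 3.32 FPKM in the DMSO libraries (-0.60 ± 0.15, adjusted p = 0.00592). Ears2 charges glutamate and also loads glutamate onto the glutamine tRNA of mitochondria, to be amidated there. Ears2 had 2.05, 1.04 and 1.37 FPKM in the PD325901 libraries, against 2.58, 2.83 and 2.76 FPKM in the DMSO libraries (-0.60 ± 0.16, adjusted p = 0.0102). PD325901 and DMSO libraries did not overlap in these 3 genes.

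Nars2, Iars2, Rars2, Tars2 and Aars2 fell as well, with log2 differences from -0.58 (Nars2) to -0.37 (Aars2). Aars2, for alanine, was the weakest of these calls, with 1.50, 1.39 and 1.54 FPKM in the PD325901 libraries, against 2.23, 1.85 and 2.57 FPKM in the DMSO libraries (adjusted p = 0.0248). Its call was lost when PD325901 replicate 1, 2 or 3 or DMSO replicate 1 or 3 was left out, with adjusted p from 0.0502 to 0.104. The Nars2 call was lost without PD325901 replicate 2 (adjusted p = 0.0589). The 8 mitochondrial genes that did not pass ranged from -0.27 (Vars2) to 0.40 (Lars2), with Sars2, Pars2, Wars2, Cars2, Fars2 and Hars2 between them. Fars2, for phenylalanine, and Hars2, for histidine, had their 3 PD325901 libraries above the 3 DMSO libraries, with log2 differences of 0.21 ± 0.12, adjusted p = 0.172 and 0.23 ± 0.12, adjusted p = 0.138.

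**Figure D4:**
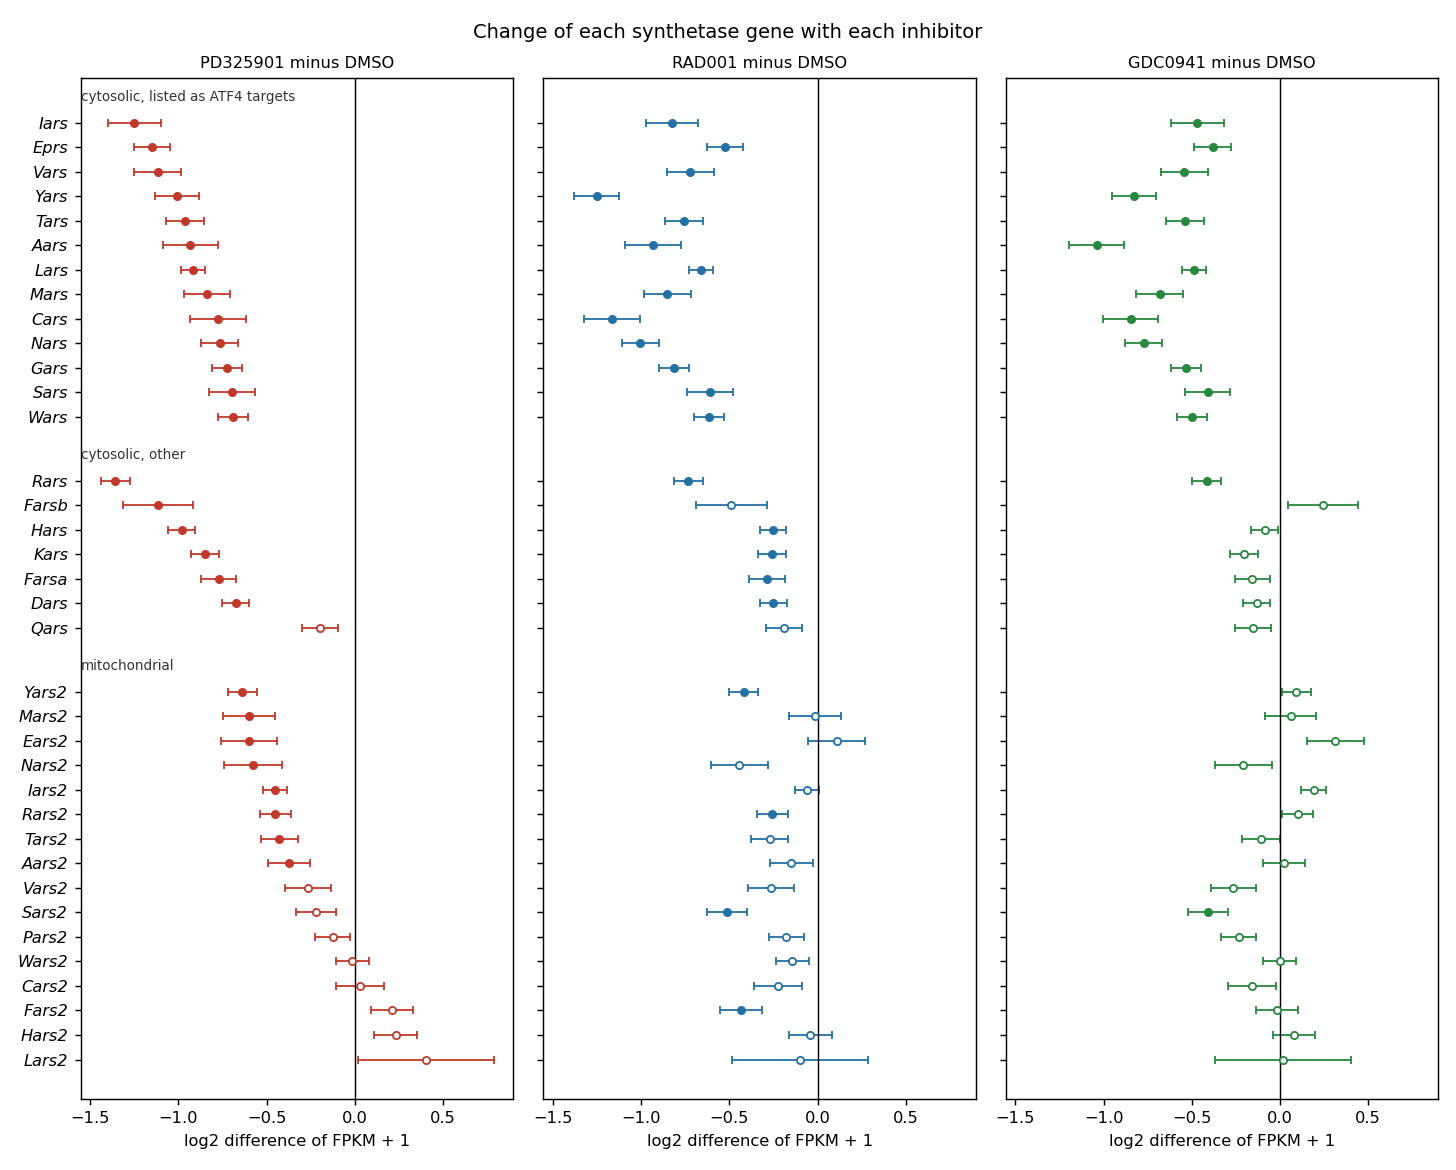
Log2 difference of FPKM + 1 for each synthetase gene, PD325901 minus DMSO (left), RAD001 minus DMSO (middle) and GDC0941 minus DMSO (right). Points are fitted differences, bars are SE, and filled points have an adjusted p under 0.05; the 13 genes listed as ATF4 targets are filled in all 3 panels, and of the other cytosolic genes only Rars is filled in all 3.

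RAD001 against DMSO asks the same of the inhibitor of mTOR complex 1. The 20 cytosolic genes again leaned one way: 18 fell and 0 rose, where 15.9% of all genes tested fell and 15.4% rose. Farsb and Qars did not pass. The cytosolic median was -0.69, against 0.00 over all genes. Of the mitochondrial genes 4 of 16 fell (Sars2, Fars2, Yars2 and Rars2) and 0 rose, with a median of -0.20. The comparisons of the 3 inhibitors with DMSO use the same 3 DMSO libraries and are therefore not independent of each other.

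The genes that fell most with RAD001 were Yars, Cars, Nars, Aars and Mars, and all of them are on the ATF4 list. Yars, for tyrosine, had 10.8, 10.0 and 10.1 FPKM in the RAD001 libraries, against 25.4, 25.9 and 26.2 FPKM in the DMSO libraries (-1.25 ± 0.13, adjusted p = 7.74e-05). Cars, for cysteine, had 11.0, 8.93 and 9.70 FPKM in the RAD001 libraries, against 24.1, 22.8 and 22.8 FPKM in the DMSO libraries (-1.16 ± 0.16, adjusted p = 0.000397). The 3 RAD001 libraries of both genes lay below every DMSO library.

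Nars had 52.6, 55.9 and 55.6 FPKM in the RAD001 libraries, against 123, 105 and 105 FPKM in the DMSO libraries (-1.01 ± 0.10, adjusted p = 8.96e-05). Aars, for alanine, had 29.0, 25.9 and 25.8 FPKM in the RAD001 libraries, against 59.2, 48.3 and 49.4 FPKM in the DMSO libraries (-0.93 ± 0.16, adjusted p = 0.00132). Mars, the methionine enzyme that also serves initiation of translation, had 15.7, 13.9 and 14.3 FPKM in the RAD001 libraries, against 29.6, 26.7 and 25.4 FPKM in the DMSO libraries (-0.85 ± 0.13, adjusted p = 0.000824). No library overlapped between the groups in Nars, Aars or Mars.

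Of the other listed ATF4 targets, Iars, Gars, Tars, Vars, Lars, Wars, Sars and Eprs fell, with log2 differences between -0.82 (Iars) and -0.52 (Eprs). Lars encodes the leucine enzyme, which is also known as a leucine sensor of mTOR complex 1, and its difference was -0.66 ± 0.07, adjusted p = 8.33e-05. Off the list, Rars fell to a like degree (-0.73 ± 0.08, adjusted p = 0.000146), and Farsa, Kars, Dars and Hars fell with log2 differences between -0.29 (Farsa) and -0.25 (Dars). The count of genes off the list that fell was 5 of 7, and it was 1 without RAD001 replicate 2 and 2 without RAD001 replicate 3, DMSO replicate 2 or DMSO replicate 3. With replicate number as a block Farsa no longer passed (adjusted p = 0.0568).

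Farsb had 31.7, 19.7 and 20.7 FPKM in the RAD001 libraries, against 35.1, 31.9 and 33.3 FPKM in the DMSO libraries. Its RAD001 libraries lay below the DMSO libraries, but RAD001 replicate 1 came close to them and the difference did not pass (-0.49 ± 0.20, adjusted p = 0.0855). Without RAD001 replicate 1, Farsb passed at -0.70, adjusted p = 0.0149, and with the replicate block at -0.49, adjusted p = 0.00924. Qars gave -0.19 ± 0.10, adjusted p = 0.173, with overlapping libraries and a 95% interval of -0.42 to 0.04. Without RAD001 replicate 1 it passed as well, at -0.29, adjusted p = 0.0361.

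In the mitochondrial set Sars2, for serine, had 3.60, 3.80 and 3.87 FPKM in the RAD001 libraries, against 5.04, 6.79 and 5.64 FPKM in the DMSO libraries (-0.51 ± 0.11, adjusted p = 0.00568). Fars2 had 5.97, 7.81 and 7.44 FPKM in the RAD001 libraries, against 9.54, 10.1 and 9.94 FPKM in the DMSO libraries (-0.44 ± 0.12, adjusted p = 0.0168). Yars2 had 4.99, 4.92 and 5.14 FPKM in the RAD001 libraries, against 7.27, 6.56 and 7.31 FPKM in the DMSO libraries (-0.42 ± 0.08, adjusted p = 0.00324). All RAD001 libraries of these 3 genes stood below all DMSO libraries. Rars2, for arginine, passed narrowly (-0.26 ± 0.09, adjusted p = 0.0482) and not with the replicate block (adjusted p = 0.0532). Leaving out RAD001 replicate 1, DMSO replicate 2 or DMSO replicate 3 ended the Fars2 call (adjusted p = 0.0527 to 0.0571), and leaving out any 1 RAD001 or DMSO library ended that of Rars2. The mitochondrial count was then 2 (without DMSO replicate 2 or 3) or 3. The 12 mitochondrial genes that did not pass ranged from -0.44 (Nars2) to 0.11 (Ears2), and with the replicate block Nars2 passed at -0.44, adjusted p = 0.0208.

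GDC0941 against DMSO asks the same of the inhibitor of PI3 kinases, which lie upstream of mTOR. Of the 20 cytosolic genes 14 fell and 0 rose, where 12.7% of all genes tested fell and 11.6% rose. These 14 were the 13 genes on the ATF4 list and Rars. The cytosolic median was -0.48, against 0.02 over all genes. In the mitochondrial set 1 of 16 genes fell (Sars2) and 0 rose, with a median of 0.01, and both counts were below the shares over all genes. Under quantile normalization 0 fell and 1 rose, with Sars2 at an adjusted p of 0.0853 and Iars2 at 0.21, adjusted p = 0.0370.

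Aars showed the largest difference with GDC0941, at 34.1, 21.9 and 20.5 FPKM in the GDC0941 libraries, against 59.2, 48.3 and 49.4 FPKM in the DMSO libraries (-1.04 ± 0.16, adjusted p = 0.00105). Cars had 17.0, 9.54 and 11.9 FPKM in the GDC0941 libraries, against 24.1, 22.8 and 22.8 FPKM in the DMSO libraries (-0.85 ± 0.16, adjusted p = 0.00322). GDC0941 replicate 1 was the highest of its group in both genes and still lay below every DMSO library.

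Yars had 18.2, 11.8 and 13.0 FPKM in the GDC0941 libraries, against 25.4, 25.9 and 26.2 FPKM in the DMSO libraries (-0.83 ± 0.13, adjusted p = 0.00114). Nars had 76.7, 58.9 and 59.4 FPKM in the GDC0941 libraries, against 123, 105 and 105 FPKM in the DMSO libraries (-0.77 ± 0.10, adjusted p = 0.000615). Mars had 21.3, 14.5 and 14.6 FPKM in the GDC0941 libraries, against 29.6, 26.7 and 25.4 FPKM in the DMSO libraries (-0.68 ± 0.13, adjusted p = 0.00378). These 3 genes did not overlap between the groups, again with replicate 1 the highest GDC0941 library.

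The other ATF4-listed genes fell, with log2 differences between -0.54 (Vars) and -0.38 (Eprs) and Tars, Gars, Wars, Lars, Iars and Sars between these values. Rars fell as well (-0.42 ± 0.08, adjusted p = 0.00450). With 1 library left out at a time, 10 to 13 of the 13 listed genes were called, and the calls lost in some of these fits were those of Eprs, Iars, Sars and Vars. Gars had 65.0, 50.5 and 58.5 FPKM in the GDC0941 libraries, against 82.1, 85.8 and 84.2 FPKM in the DMSO libraries (-0.54 ± 0.09, adjusted p = 0.00145). The 6 cytosolic genes that did not pass were Dars, Farsa, Farsb, Hars, Kars and Qars, all off the list. Their log2 differences ran from -0.20 (Kars, lysine) to 0.24 (Farsb). Hars, for histidine, had 37.6, 32.2 and 33.1 FPKM in the GDC0941 libraries, against 35.8, 37.1 and 36.5 FPKM in the DMSO libraries (95% interval of the log2 difference -0.26 to 0.08). Hars libraries of the 2 groups overlapped.

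Sars2 had 4.16, 3.68 and 4.51 FPKM in the GDC0941 libraries, against 5.04, 6.79 and 5.64 FPKM in the DMSO libraries (-0.41 ± 0.11, adjusted p = 0.0220), without overlap. Its call was lost when GDC0941 replicate 2, DMSO replicate 2 or DMSO replicate 3 was left out (adjusted p = 0.0542 to 0.0949), and the mitochondrial count was 2 without GDC0941 replicate 1 (both lower) or 3 (1 lower and, in Iars2, 1 higher). The other 15 mitochondrial genes lay between -0.26 (Vars2) and 0.31 (Ears2), and Ears2 and Iars2 had all 3 GDC0941 libraries above the DMSO libraries without passing the test (adjusted p = 0.186 and 0.0654).

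Split by the ATF4 list, the 13 listed genes fell with every inhibitor: 13 of 13 with PD325901 (median -0.92), 13 of 13 with RAD001 (median -0.81) and 13 of 13 with GDC0941 (median -0.54). The list was drawn up after values of the genes were known, so the split is a description and adds no independent support. Of the 7 genes off the list, 6 fell with PD325901 (median -0.85), 5 with RAD001 (median -0.26) and 1 with GDC0941 (median -0.15). The share of all genes tested that fell was 28.2% with PD325901, 15.9% with RAD001 and 12.7% with GDC0941, so the 1 of 7 with GDC0941 was near that share. Without replicate 1 of every group, a setting chosen after seeing the data, the GDC0941 count off the list was 3. The 5 genes with TGATGNAA in the promoter lay between -1.25 and -0.75 with RAD001, and the 8 other cytosolic genes with a promoter in the table between -0.85 and -0.19. With GDC0941 the ranges were -1.04 and -0.47 with the letters and -0.68 and 0.24 without them, and with PD325901 -1.25 and -0.72 and -1.15 and -0.20. The ranges overlapped in each comparison.

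Set directly against RAD001, PD325901 left 10 of 20 cytosolic genes lower and 0 higher, where 29.4% of all genes tested were lower and 20.8% higher. Of the 16 mitochondrial genes 4 were lower and 2 higher, neither above these shares. The genes that were lower with PD325901 included 6 of the 7 off the ATF4 list (Dars, Farsa, Farsb, Hars, Kars and Rars) and 4 of the 13 on it (Eprs, Iars, Lars and Vars). The 4 of 13 was near the share over all genes. Neither the dose in µM nor the degree of target inhibition was matched between the compounds. Under median-ratio scaling, in the fit of the 2 groups alone and without replicate 1 of every group, the listed genes called were 7, of which 4 were lower and 3 higher with PD325901. Under quantile normalization 2 were lower and 4 higher, with Iars and Vars no longer called and Cars, Gars, Nars and Yars called as higher. Without PD325901 replicate 2 or RAD001 replicate 1 the listed genes called were 2.

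Hars showed the largest cytosolic difference, with 18.0, 17.8 and 18.1 FPKM in the PD325901 libraries, against 32.3, 30.5 and 28.6 FPKM in the RAD001 libraries (-0.73 ± 0.07, adjusted p = 1.50e-05). Farsb had 17.2, 12.6 and 15.2 FPKM in the PD325901 libraries, against 31.7, 19.7 and 20.7 FPKM in the RAD001 libraries (-0.63 ± 0.20, adjusted p = 0.0217). Hars and Farsb libraries did not overlap between the 2 groups. The Farsb call was lost without PD325901 replicate 2 (adjusted p = 0.0847) or RAD001 replicate 1 (adjusted p = 0.0790). At the other end, Cars, Nars and Yars had higher PD325901 than RAD001 libraries throughout, with log2 differences of 0.39 ± 0.16, adjusted p = 0.0610, 0.24 ± 0.10, adjusted p = 0.0792 and 0.24 ± 0.13, adjusted p = 0.131, none past the test. With the replicate block Cars passed at 0.39, adjusted p = 0.0194.

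Ears2 was lower with PD325901, at 2.05, 1.04 and 1.37 FPKM in the PD325901 libraries, against 3.20, 2.50 and 3.41 FPKM in the RAD001 libraries (-0.71 ± 0.16, adjusted p = 0.00351). Fars2 was higher, at 10.9, 11.4 and 12.4 FPKM in the PD325901 libraries, against 5.97, 7.81 and 7.44 FPKM in the RAD001 libraries (0.64 ± 0.12, adjusted p = 0.000950). Sars2 was higher too, at 4.53, 5.48 and 4.50 FPKM in the PD325901 libraries, against 3.60, 3.80 and 3.87 FPKM in the RAD001 libraries (0.29 ± 0.11, adjusted p = 0.0493). The libraries of these 3 genes did not overlap, although the Sars2 call was lost when any 1 PD325901 or RAD001 library was left out (adjusted p = 0.0604 to 0.182). Iars2, Mars2 and Yars2 were also lower with PD325901, and Yars2 (-0.22 ± 0.08, adjusted p = 0.0436) did not pass with the replicate block (adjusted p = 0.0503) or with any 1 PD325901 or RAD001 library left out. With the replicate block Hars2 was higher with PD325901, at 0.27, adjusted p = 0.0258.

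Against GDC0941, PD325901 left 11 of 20 cytosolic genes lower and 0 higher, where 30.7% of all genes tested were lower and 20.9% higher. Of the mitochondrial genes 7 of 16 were lower (Aars2, Ears2, Iars2, Mars2, Rars2, Tars2 and Yars2) and 0 higher, while under median-ratio scaling 6 were lower and 1 higher (Fars2, 0.31, adjusted p = 0.0465). The 11 were again 6 of the 7 genes off the ATF4 list and 5 of the 13 on it (Eprs, Iars, Lars, Tars and Vars). The 5 of 13 was near the share over all genes. Farsb had 17.2, 12.6 and 15.2 FPKM in the PD325901 libraries, against 53.3, 33.5 and 35.0 FPKM in the GDC0941 libraries (-1.36 ± 0.20, adjusted p = 0.000192). Rars had 19.9, 19.8 and 22.5 FPKM in the PD325901 libraries, against 43.3, 37.2 and 41.9 FPKM in the GDC0941 libraries (-0.94 ± 0.08, adjusted p = 5.07e-06). Ears2 had 2.05, 1.04 and 1.37 FPKM in the PD325901 libraries, against 2.98, 3.54 and 4.48 FPKM in the GDC0941 libraries (-0.91 ± 0.16, adjusted p = 0.000673). In all 3 genes the PD325901 libraries were below the GDC0941 libraries. Aars, Cars and Nars, by contrast, gave log2 differences of 0.11 ± 0.16, adjusted p = 0.603, 0.07 ± 0.16, adjusted p = 0.735 and 0.00 ± 0.10, adjusted p = 0.979 with overlapping libraries. Without GDC0941 replicate 1 Aars was higher with PD325901, at 0.33, adjusted p = 0.0179.

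**Figure D5:**
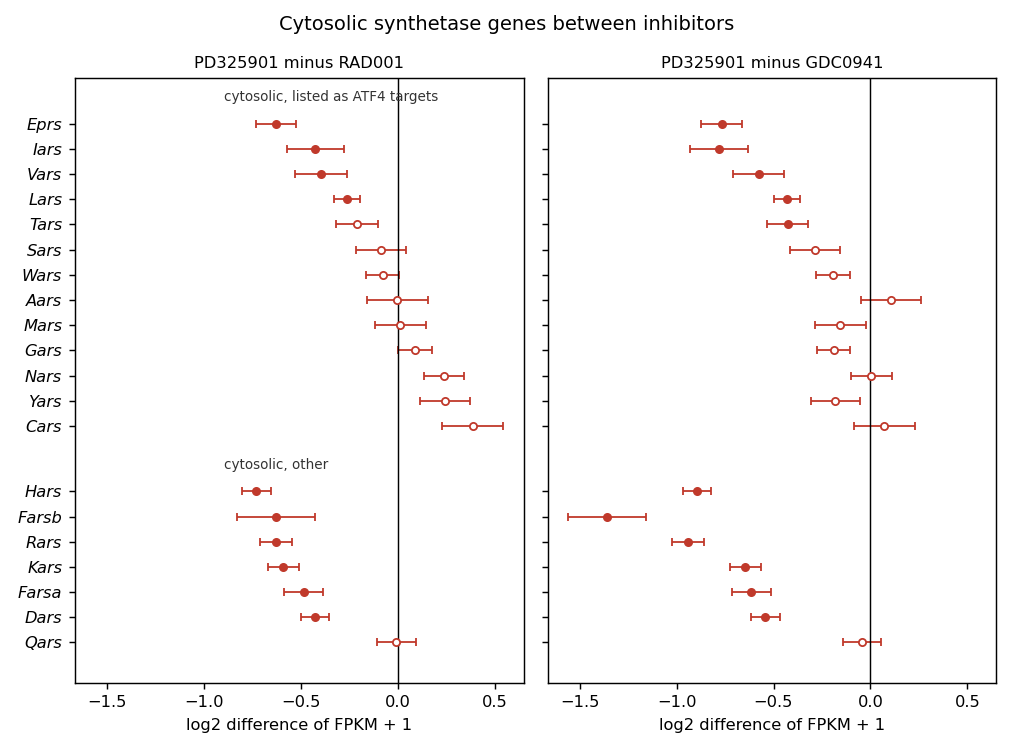
Log2 difference of FPKM + 1 for each cytosolic gene, PD325901 minus RAD001 (left) and PD325901 minus GDC0941 (right). Points are fitted differences, bars are SE, and filled points have an adjusted p under 0.05; apart from Qars, the genes off the ATF4 list (lower block) are filled and left of 0, while the lower part of the listed block lies near or right of 0.

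Against RAD001, 4 of 20 cytosolic genes were higher with GDC0941 (Farsb, Gars, Rars and Yars) and 4 of 16 mitochondrial genes (Fars2, Iars2, Rars2 and Yars2), and 0 were lower, where 8.09% of all genes tested were higher and 9.35% lower. Farsb had 53.3, 33.5 and 35.0 FPKM in the GDC0941 libraries, against 31.7, 19.7 and 20.7 FPKM in the RAD001 libraries (0.73 ± 0.20, adjusted p = 0.0291). Yars had 18.2, 11.8 and 13.0 FPKM in the GDC0941 libraries, against 10.8, 10.0 and 10.1 FPKM in the RAD001 libraries (0.42 ± 0.13, adjusted p = 0.0407). Yars2 had 8.31, 6.97 and 7.49 FPKM in the GDC0941 libraries, against 4.99, 4.92 and 5.14 FPKM in the RAD001 libraries (0.51 ± 0.08, adjusted p = 0.00218). The groups did not overlap in any of the 3 genes, but GDC0941 replicate 1 was the highest in each. The cytosolic count ranged from 0 (without RAD001 replicate 2 or 3) to 5 when 1 library was left out, and the mitochondrial count from 1 to 4. Without GDC0941 replicate 1 the 1 cytosolic gene called was Aars, lower with GDC0941 at -0.33, adjusted p = 0.0460. Over all genes, leaving out RAD001 replicate 3 gave 637 lower and 336 higher, against 964 lower and 834 higher with all libraries, and quantile normalization gave 902 lower and 1152 higher.

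Hars and Hars2 lie head to head on opposite strands in the GENCODE M21 annotation, with 9.8% of the Hars exon bases and 5.85% of the Hars2 exon bases shared. The ratio of Hars to Hars2 was 3.07, 2.77 and 3.08 in the PD325901 libraries, 7.73, 5.89 and 5.47 in the RAD001 libraries, 8.54, 5.68 and 5.44 in the GDC0941 libraries and 8.10, 7.11 and 6.72 in the DMSO libraries. The PD325901 ratios lay below all others, and with PD325901 Hars fell while Hars2 did not pass the test. Exons of Aars also overlap Exosc6 on the same strand (23.06% of Aars exon bases). On the opposite strand Iars2 overlaps Rab3gap2 (30.49% of Iars2 exon bases), Farsb overlaps Sgpp2 (11.28% of Farsb exon bases), and Fars2, Ears2, Mars and Yars share less than 5% of theirs with a neighbour. The labels do not say whether reads were counted by strand, so reads from the overlapping parts cannot be told apart.

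Within the multi-synthetase complex, 7 of its 8 synthetase genes fell with PD325901, 7 with RAD001 and 5 with GDC0941, and Qars passed in none of these 3 comparisons. Of the 3 scaffold genes 3 fell with PD325901, 0 changed with RAD001 and 1 rose with GDC0941. Over all genes tested 28.2% with PD325901, 15.9% with RAD001 and 12.7% with GDC0941 fell, and 11.6% rose with GDC0941. Eef1e1, which encodes the scaffold protein AIMP3, had 8.15, 6.56 and 7.62 FPKM in the PD325901 libraries, against 26.8, 23.6 and 21.4 FPKM in the DMSO libraries (-1.56 ± 0.11, adjusted p = 2.66e-06). Its GDC0941 libraries held 31.9, 31.9 and 35.4 FPKM (0.45 ± 0.11, adjusted p = 0.0109 against DMSO) and its RAD001 libraries 27.6, 25.2 and 22.6 FPKM (0.07 ± 0.11, adjusted p = 0.652 against DMSO). Eef1e1 libraries thus lay below DMSO with PD325901, above it with GDC0941 and overlapped it with RAD001. Aimp2 (-0.88 ± 0.10, adjusted p = 4.39e-05) and Aimp1 (-0.40 ± 0.09, adjusted p = 0.00401) fell with PD325901. Aimp1 gave -0.04 ± 0.09, adjusted p = 0.790 with RAD001. All 3 scaffold genes were lower with PD325901 than with RAD001 and than with GDC0941.

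Genes that act on the charged or uncharged tRNA beside the synthetases were grouped in textbook lists. Of 3 trans-editing genes, whose products clear wrongly charged tRNAs, 1 fell with PD325901, 3 with RAD001 and 1 with GDC0941, where all genes tested fell in 28.2%, 15.9% and 12.7% of cases with the same inhibitors. Aarsd1, which clears misacylated alanine tRNA, had 10.0, 9.28 and 8.19 FPKM in the PD325901 libraries, against 14.5, 16.7 and 16.5 FPKM in the DMSO libraries (-0.73 ± 0.13, adjusted p = 0.00102), and its RAD001 difference was -0.42 ± 0.13, adjusted p = 0.0324. Prorsd1 was -0.47 ± 0.08, adjusted p = 0.00162 with RAD001 and -0.27 ± 0.08, adjusted p = 0.0315 with GDC0941. Dtd1, which removes D-amino acids from tRNA, was -0.80 ± 0.21, adjusted p = 0.0126 with RAD001. Of 4 genes for formylation and amidation of mitochondrial tRNA, Gatc rose with PD325901 (0.48 ± 0.08, adjusted p = 0.000667) and Pet112l, another subunit of the same glutamyl-tRNA amidotransferase, fell with PD325901 (-0.48 ± 0.12, adjusted p = 0.00820) and RAD001 (-0.40 ± 0.12, adjusted p = 0.0306). These were the only calls in the list. Of all genes tested 18.4% rose with PD325901, so 1 of 4 in either direction was near the shares over all genes. With GDC0941 0 of the 4 changed, and the most abundant, Gatc and Qrsl1, gave 0.18 ± 0.08, adjusted p = 0.127 and -0.06 ± 0.14, adjusted p = 0.793.

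Of 5 genes that make and read selenocysteine tRNA, 1 rose and 1 fell with PD325901, 1 fell with RAD001 and 0 changed with GDC0941. With PD325901 28.2% of all genes tested fell and 18.4% rose, and with RAD001 15.9% fell, so these counts were near the shares over all genes. Sephs2, which makes the selenium donor, had 113, 92.7 and 94.2 FPKM in the PD325901 libraries, against 53.5, 57.6 and 57.1 FPKM in the DMSO libraries (0.82 ± 0.11, adjusted p = 0.000138). Its RAD001 libraries held 39.5, 43.7 and 44.4 FPKM (-0.39 ± 0.11, adjusted p = 0.0175 against DMSO), so Sephs2 moved in opposite directions with these inhibitors and the groups did not overlap. Sepsecs, the synthase that turns serine on this tRNA into selenocysteine, fell with PD325901 (-0.42 ± 0.12, adjusted p = 0.0150). With GDC0941 Sephs2 and Secisbp2, the most abundant, gave -0.15 ± 0.11, adjusted p = 0.340 and 0.22 ± 0.12, adjusted p = 0.226.

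Of 27 genes tested for tRNA maturation, modification and export, 16 fell and 0 rose with PD325901, 3 fell and 0 rose with RAD001, and 1 fell and 4 rose with GDC0941. All genes tested fell in 28.2%, 15.9% and 12.7% of cases and rose in 18.4%, 15.4% and 11.6% with these inhibitors in the same order, so the count of falls with RAD001 was below the share over all genes and that of rises with GDC0941 was near it. Nsun2, a tRNA cytosine methyltransferase, had 9.43, 8.85 and 9.67 FPKM in the PD325901 libraries, against 21.7, 23.6 and 23.8 FPKM in the DMSO libraries (-1.22 ± 0.08, adjusted p = 1.59e-06). Mettl1, which methylates guanosine in tRNA, had 2.98, 3.90 and 3.12 FPKM in the PD325901 libraries, against 11.3, 11.6 and 11.0 FPKM in the DMSO libraries (-1.51 ± 0.17, adjusted p = 5.63e-05). Neither gene had overlapping groups. Pus7, a pseudouridine synthase (-1.42 ± 0.11, adjusted p = 4.23e-06), and Trmt61a, an adenosine methyltransferase subunit (-1.15 ± 0.14, adjusted p = 8.85e-05), fell with PD325901. Xpot, the exporter of tRNA from the nucleus and itself often listed as an ATF4 target, had 11.5, 10.7 and 10.2 FPKM in the RAD001 libraries, against 18.4, 18.6 and 18.7 FPKM in the DMSO libraries (-0.73 ± 0.11, adjusted p = 0.000858), and 16.7, 12.3 and 11.5 FPKM in the GDC0941 libraries (-0.45 ± 0.11, adjusted p = 0.0149). Elp3 (-0.45 ± 0.13, adjusted p = 0.0204) fell with RAD001. Pus3 (0.57 ± 0.13, adjusted p = 0.00780), Trmt61a (0.51 ± 0.14, adjusted p = 0.0229) and Tsen54 (0.36 ± 0.11, adjusted p = 0.0326) rose with GDC0941.

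RNA polymerase III transcribes the tRNA genes, and of 21 genes for it and its factors 8 fell and 1 rose with PD325901, 4 fell and 2 rose with RAD001, and 1 fell and 3 rose with GDC0941. Of all genes tested 28.2% fell and 18.4% rose with PD325901, 15.9% and 15.4% with RAD001 and 12.7% and 11.6% with GDC0941, and the falls with PD325901 and RAD001 and the rises with GDC0941 were near these shares. Gtf3c6 (-0.55 ± 0.08, adjusted p = 0.000256), Gtf3c5 (-0.67 ± 0.10, adjusted p = 0.000300) and Polr3d (-0.71 ± 0.13, adjusted p = 0.000999) fell with PD325901. Maf1, the repressor of the enzyme, which mTOR complex 1 is known to hold in check, rose with RAD001 (0.26 ± 0.08, adjusted p = 0.0273) and GDC0941 (0.35 ± 0.08, adjusted p = 0.00853). Polr3c fell with RAD001 (-0.31 ± 0.07, adjusted p = 0.00688) and GDC0941 (-0.32 ± 0.07, adjusted p = 0.00724). Polr3k (-0.42 ± 0.08, adjusted p = 0.00201) and Brf2 (-0.34 ± 0.09, adjusted p = 0.0126) fell with RAD001, and Polr3e (0.37 ± 0.08, adjusted p = 0.00864) and Polr3d (0.52 ± 0.13, adjusted p = 0.0125) rose with GDC0941.

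The amino acid response genes, which include Atf4 and well-known targets of it, were called lower more often than higher with each inhibitor: of 24 tested, 14 fell and 2 rose with PD325901, 17 fell and 3 rose with RAD001, and 16 fell and 2 rose with GDC0941. The shares of all genes tested that fell and rose were 28.2% and 18.4% with PD325901, 15.9% and 15.4% with RAD001, and 12.7% and 11.6% with GDC0941. Pycr1 and Cth were below the filter. Atf4 itself had 156, 146 and 137 FPKM in the PD325901 libraries, 131, 120.1 and 125 FPKM in the RAD001 libraries, 183, 122 and 167 FPKM in the GDC0941 libraries and 259, 212 and 204 FPKM in the DMSO libraries. It fell with PD325901 (-0.61 ± 0.14, adjusted p = 0.00410), RAD001 (-0.83 ± 0.14, adjusted p = 0.00127) and GDC0941 (-0.53 ± 0.14, adjusted p = 0.0184), and was named here after its values were seen. ATF4 is controlled largely at translation, which RNA levels do not measure.

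Asns makes asparagine, the substrate of the Nars enzyme. It had 27.3, 24.9 and 26.0 FPKM in the PD325901 libraries (-1.27 ± 0.14, adjusted p = 3.93e-05 against DMSO), 18.0, 17.6 and 17.9 FPKM in the RAD001 libraries (-1.79 ± 0.14, adjusted p = 1.47e-05), 30.9, 19.2 and 23.5 FPKM in the GDC0941 libraries (-1.37 ± 0.14, adjusted p = 9.35e-05) and 71.6, 59.9 and 61.3 FPKM in the DMSO libraries. Phgdh, Psat1 and Psph make serine, and Shmt2 turns it into glycine in mitochondria. Phgdh fell with PD325901 (-2.11 ± 0.14, adjusted p = 1.66e-06), RAD001 (-2.59 ± 0.14, adjusted p = 9.22e-07) and GDC0941 (-2.41 ± 0.14, adjusted p = 8.86e-06). Shmt2 fell with PD325901 (-1.48 ± 0.12, adjusted p = 6.17e-06), RAD001 (-1.93 ± 0.12, adjusted p = 3.21e-06) and GDC0941 (-1.37 ± 0.12, adjusted p = 5.23e-05). Psat1 fell with PD325901 (-2.93 ± 0.18, adjusted p = 1.43e-06), Psph with RAD001 (-1.26 ± 0.11, adjusted p = 3.09e-05), and Sesn2, a leucine-binding regulator of mTOR complex 1, with GDC0941 (-1.37 ± 0.09, adjusted p = 1.13e-05). Asns, Phgdh and Shmt2 libraries of every inhibitor lay below the DMSO libraries.

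The members of the amino acid response list that rose were Cebpb and Cebpg with PD325901, Slc7a11, Cebpb and Slc38a2 with RAD001, and Slc7a11 and Cebpb with GDC0941, and they are named here after their values were seen. Slc7a11, for a subunit of the cystine and glutamate exchanger, had 1.14, 2.09 and 2.66 FPKM in the PD325901 libraries, 21.6, 40.9 and 40.5 FPKM in the RAD001 libraries, 10.2, 31.5 and 22.9 FPKM in the GDC0941 libraries and 5.05, 3.396 and 4.14 FPKM in the DMSO libraries. It rose with RAD001 (2.72 ± 0.37, adjusted p = 0.000384) and GDC0941 (2.00 ± 0.37, adjusted p = 0.00299) and did not pass with PD325901 (-0.83 ± 0.37, adjusted p = 0.0834). Its RAD001 and GDC0941 libraries all lay above the DMSO libraries and its PD325901 libraries below them. Cebpb, for a C/EBP transcription factor, rose with PD325901 (0.72 ± 0.17, adjusted p = 0.00529), RAD001 (1.37 ± 0.17, adjusted p = 0.000260) and GDC0941 (0.98 ± 0.17, adjusted p = 0.00244), without overlap with DMSO. Cebpg, another C/EBP gene, rose with PD325901 (0.52 ± 0.17, adjusted p = 0.0244), and Slc38a2, for an amino acid transporter, with RAD001 (0.51 ± 0.11, adjusted p = 0.00592).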

How the data were processed

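Total RNA of 12 libraries (4 groups of 3) was sequenced, and the authors deposited 1 table of FPKM values per gene and library. Per the submitters' processing notes, these FPKM come from TopHat2 2.0.4 and Cuffdiff on mm9. Neither the gene annotation nor the scaling between libraries is given in the sources used here, and the Cuffdiff version is not stated. Scaling between libraries makes each value depend on other genes, so alternative scalings were tried.

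Genes that averaged 1 FPKM or more were tested as log2(FPKM + 1) with limma 3.58.1 (R 4.3.3), in 1 fit of 4 group means with 8 residual degrees of freedom and eBayes with a trend. Tests were two-sided, adjusted by the Benjamini-Hochberg method over all genes tested in each of 6 comparisons, with a threshold of 0.05. The procedure was also run on simulated data. Those data had independent noise between libraries and few changed genes, unlike the data here, so that run cannot vouch for the calls. The absolute depth is unknown, so no counting error could be given.

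The members and lists were chosen with earlier results of these data known. Named with values in every library were the largest changes of each comparison past the threshold without overlap (up to 5 cytosolic and 3 mitochondrial per inhibitor, 3 each way between inhibitors), and the 3 most and 3 least abundant genes. Each other list gave up to 4 names by smallest adjusted p, or 2 by level where no gene passed; some genes these rules name are not reported here.

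Libraries with the same replicate number deviated together from their group means (lowest correlation 0.183 for PD325901 with DMSO, 0.201 for RAD001 with DMSO, 0.149 for PD325901 with RAD001 and 0.309 for GDC0941 with RAD001), so a fit with replicate number as a block was an alternative. Same-numbered libraries were each other's closest match for all 3 numbers in PD325901 with DMSO. This held for 1 number in RAD001 with DMSO, 1 in PD325901 with RAD001 and 2 in GDC0941 with RAD001. Pairing by number is thus incomplete in these 3 comparisons. It comes from the data, since the labels give numbers only. Promoters were taken from a RefSeq table on GRCm38.p6 and matched by symbol (Mars by a synonym). Overlapping neighbours came from GENCODE M21, whose build differs from that of the authors, so no gene coordinates are given.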

Additional observations from a re-analysis of the deposited data

How the results depend on the processing

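Of the 106 synthetase calls of the 6 comparisons, none changed direction under any alternative. All 106 held with a pseudocount of 0.1 FPKM, 104 with one of 5 FPKM, 95 without the filter, 104 with median-ratio scaling, 98 with quantile normalization, 104 without the trend, 93 in fits of the 2 groups alone, 103 with the replicate block and 99 without replicate 1 of every group, an alternative chosen after seeing the data. Of the 94 calls with a mean of at least 5 FPKM, 93 held under that filter. The block changed the synthetase calls named with it in the report and no other in comparisons whose same-numbered libraries deviated together. Same-numbered libraries did not all deviate together for GDC0941 with DMSO (lowest correlation 0.0354), where the block changed no call, or for PD325901 with GDC0941 (lowest correlation -0.139), where Sars (-0.29, adjusted p = 0.0191, limma) and Nars2 (-0.37, adjusted p = 0.02999) passed with the block.

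Counts of mitochondrial genes called under the filter of 5 FPKM were 4 for PD325901 against DMSO, 0 for GDC0941 against DMSO, 4 for PD325901 against GDC0941 and 2 for PD325901 against RAD001, with fewer genes tested. Without replicate 1 of every group they were 7 for RAD001 against DMSO, 3 for GDC0941 against DMSO and 2 for GDC0941 against RAD001. In fits of the 2 groups alone they were 0 for GDC0941 against DMSO and 1 for GDC0941 against RAD001, and the cytosolic count for GDC0941 against RAD001 was 0 there and 1 without the filter.

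A pseudocount of 5 FPKM moved the median log2 difference to -0.76 (cytosolic) and -0.15 (mitochondrial) for PD325901 against DMSO, -0.56 and -0.10 for RAD001 against DMSO, -0.41 (cytosolic) for GDC0941 against DMSO, and -0.35 and -0.067 for PD325901 against GDC0941. The mitochondrial median for PD325901 against DMSO was -0.45 with a pseudocount of 0.1 FPKM, -0.20 under the filter of 5 FPKM and -0.22 with quantile normalization, and that for PD325901 against RAD001 was 0.047 under that filter. Median-ratio scaling gave cytosolic medians of -0.81 for PD325901 against DMSO, -0.34 for PD325901 against GDC0941 and -0.16 for PD325901 against RAD001. Quantile normalization gave -0.16 for PD325901 against RAD001, and leaving out replicate 1 of every group gave -0.33 for PD325901 against GDC0941. The cause of these shifts was not tested.

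With 1 library left out, mitochondrial counts ranged from 6 to 8 for PD325901 against DMSO, 2 to 3 for RAD001 against DMSO, 0 to 2 for GDC0941 against DMSO, 4 to 6 for PD325901 against RAD001, 5 to 8 for PD325901 against GDC0941 and 1 to 4 for GDC0941 against RAD001. Cytosolic counts ranged from 19 to 19, 14 to 19, 11 to 14, 7 to 10, 11 to 13 and 0 to 5 in the same order of comparisons. Cytosolic medians ranged from -0.91 to -0.86, -0.71 to -0.64, -0.54 to -0.44, -0.26 to -0.20, -0.48 to -0.34 and 0.10 to 0.27, and mitochondrial medians from -0.36 to -0.27, -0.28 to -0.15, -0.05 to 0.01, -0.15 to 0.041, -0.24 to -0.10 and 0.14 to 0.20.

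The table gives no depth, so low levels (Nars2, Vars2 and Wars2) have an unknown counting error. Each inhibitor was used at 1 dose and 1 time.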

Other observations

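Tarsl2, another threonine enzyme, lies outside the 36 genes. Tarsl2 had 2.50, 1.68 and 1.85 FPKM in the PD325901 libraries, 1.52, 0.907 and 0.624 FPKM in the RAD001 libraries, 3.18, 1.19 and 1.10 FPKM in the GDC0941 libraries and 1.81, 1.72 and 2.39 FPKM in the DMSO libraries. It passed in no comparison with DMSO by limma at the adjusted p used in the report.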
